A study of Mus musculus with 11 samples.

Results

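DN2 and DN3 cells are successive CD4- CD8- (double negative) stages of the mouse thymus, and the step between them was described here over all genes. The comparison set the 2 arrays titled DN3 against the 1 array titled DN2, which are 3 of the 11 Affymetrix arrays of the series. All cells came from C57BL/6J mice with no genetic change or treatment named in the labels, which give neither age nor sex. The other 8 arrays, which supplied spread and context, were 2 per population: HSC (haematopoietic stem cells), LMPP (multipotent progenitors with lymphoid priming) and CLP (the common progenitors of lymphocytes), all of bone marrow, and ETP (the earliest thymic precursors), of thymus. The description and cell type labels of the DN2 and DN3 arrays say bone marrow, but their tissue label and the series' design say thymus, which was followed. The sources used here give no sort gates, number of animals or pooling. Because nothing states that the replicates came from separate animals, p-values may reflect technical spread alone.

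Progenitors that enter the thymus are driven towards the T lineage by Notch ligands on the thymic epithelium, and pass from ETP through DN2 to DN3. At DN2 they can still give rise to other blood lineages. By DN3 that potential is largely lost, the T cell receptor beta locus is rearranged by the RAG recombinase, and a rearranged beta chain pairs with the invariant pre-T alpha chain and the CD3 proteins to form the pre-T cell receptor. The usual sort separates the stages by loss of CD44 and KIT, with CD25 (Il2ra) on both.

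The labels were checked against these markers, on the authors' log2 intensities (RMA, robust multi-array average). Il2ra was 11.40 on the DN2 array and 11.30 and 11.23 on the DN3 arrays, against 6.96 and 7.68 on the ETP arrays and 4.07 to 4.49 in marrow. Cd44, the adhesion receptor, was 7.46 in DN2 and 5.63 and 5.62 in DN3, 3.56-fold lower (adjusted p = 0.000178). Kit, the stem cell factor receptor, was 9.24 in DN2 and 7.20 and 6.84 in DN3, 4.66-fold lower (adjusted p = 0.00144). Both genes were therefore lower on both DN3 arrays, but they are commonly used to define the sort and are a check of the labels rather than a result. Cd4 (5.09 in DN2, 5.49 and 5.27 in DN3) lay within or below its marrow range of 5.47 to 6.16. Cd8a (5.47, 5.62 and 5.61) lay within its range of 5.32 to 5.72, so neither of these coreceptor genes of later thymocytes was raised. The CD8 beta chain gene Cd8b1 went the other way, from 5.38 in DN2 to 6.50 and 6.26 in DN3 (2.0-fold). Its marrow range was 5.17 to 5.46. That rise did not pass without DN3 replicate 1, as given below.

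Of 19938 genes tested, 358 (1.80%) were called at an adjusted p under 0.05, 140 higher in DN3 (0.702%) and 218 lower (1.09%). The test was limma's, with the spread taken from the populations with 2 arrays, because DN2 has 1 array and no spread of its own. At least 2-fold differences numbered 246 among the calls (1.23% of genes), 94 higher (0.471%) and 152 lower (0.762%). Differences above 4-fold were found for 21 of the genes that rose and 43 of those that fell. Between the 2 DN3 arrays only 10 genes (0.05%) lay 2-fold apart, whereas 307 (1.54%) and 326 (1.635%) separated the DN2 array from DN3 replicates 1 and 2. The HSC replicates, the pair furthest apart, differed 2-fold at 146 genes. The DN2 array correlated over all genes at r = 0.9875 and 0.9878 with the ETP arrays and 0.986 and 0.9853 with the DN3 arrays, a description with no test.

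The counts rest on few arrays. They were 197 without DN3 replicate 1 (86 higher, 111 lower) and 181 without replicate 2 (65 higher, 116 lower), and 60 of the 140 and 94 of the 218 genes passed without each of the 10 arrays other than DN2 in turn. Arrays were left out 1 at a time, so a call without either array means with each in turn removed. Removing 1 HSC, LMPP, CLP or ETP array leaves the DN3 minus DN2 difference unchanged and takes only that pair's spread from the fit. The 2 arrays of such a pair therefore gave the same fit, so the 10 removals are not 10 independent checks. The 60 and 94 were set by the DN3 removals alone. Below, a call that did not pass without some array is given with its adjusted p there; any other gene said to rise or fall passed in all 10. In a fit of the 3 DN2 and DN3 arrays alone limma called 0 genes, with 2323 at an unadjusted p under 0.05. A trait of the DN2 array alone and a trait of the DN2 stage cannot be told apart. Fold changes of genes near the lower end of the scale, around 4 to 6, understate the change, since background sets the intensity there. As bulk samples, the arrays cannot tell fewer cells expressing a gene from less RNA per cell.

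**Figure D1:**
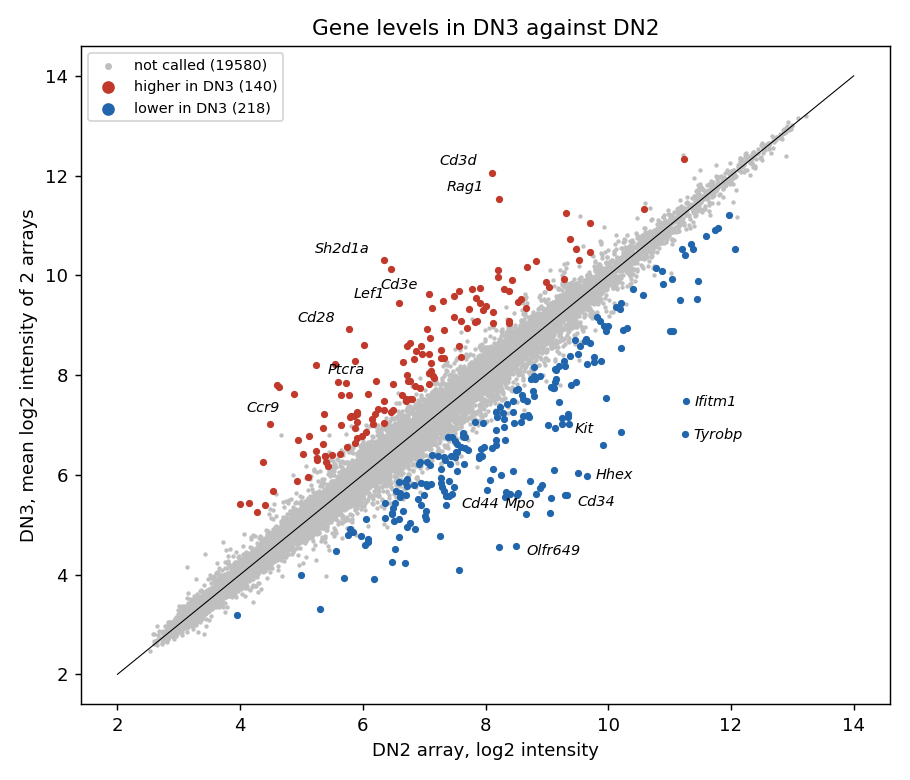
Each point is 1 gene, with its log2 intensity on the DN2 array on the horizontal axis and the mean of the 2 DN3 arrays on the vertical axis; red points rose (140), blue points fell (218) and grey points were not called (19580). Cd3d, Rag1 and Sh2d1a are among the genes furthest above the line of equal levels, and Tyrobp, Ifitm1, Hhex and Cd34 are among those furthest below it.

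Most chains of the pre-T cell receptor complex rose in DN3. Of 6 receptor and CD3 genes measured, 4 rose and 0 fell, with a median difference of 1.43 log2 against -0.00 over all genes. Cd3d, the CD3 delta chain, was 8.10 in DN2 and 12.07 and 12.04 in DN3, against 5.51 and 6.80 in ETP. Its difference of 3.95 ± 0.37 log2 (SE) was 15.5-fold (adjusted p = 0.000273). Cd3e, the epsilon chain, went from 7.07 to 9.64 and 9.59, with the ETP arrays at 6.26 and 6.24, inside the marrow range of 5.88 to 6.32. That was a rise of 5.82-fold (2.54 ± 0.19 log2, adjusted p = 4.73e-05).

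Ptcra, which encodes the pre-T alpha chain, was 6.22 in DN2, no higher than in the marrow arrays (5.99 to 6.57), and 8.01 and 7.76 in DN3, a 3.18-fold rise (adjusted p = 0.00141). The DN3 arrays were the only ones of the 11 above that range. Cd247, the CD3 zeta chain, was 7.17 in DN2 and 7.89 and 8.01 in DN3, 1.72-fold higher (adjusted p = 0.0198), but did not pass without DN3 replicate 1 (0.0745) or 2 (0.155). Cd3g, the gamma chain, was already 11.21 in DN2 and reached 12.43 and 12.38 in DN3. Its 2.28-fold difference was not called (adjusted p = 0.517) in a fit whose ETP arrays lay at 6.68 and 8.45, and passed when either ETP array was left out (0.00328). The list held 3 genes called without either DN3 array and 5 without either ETP array.

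**Figure D2:**
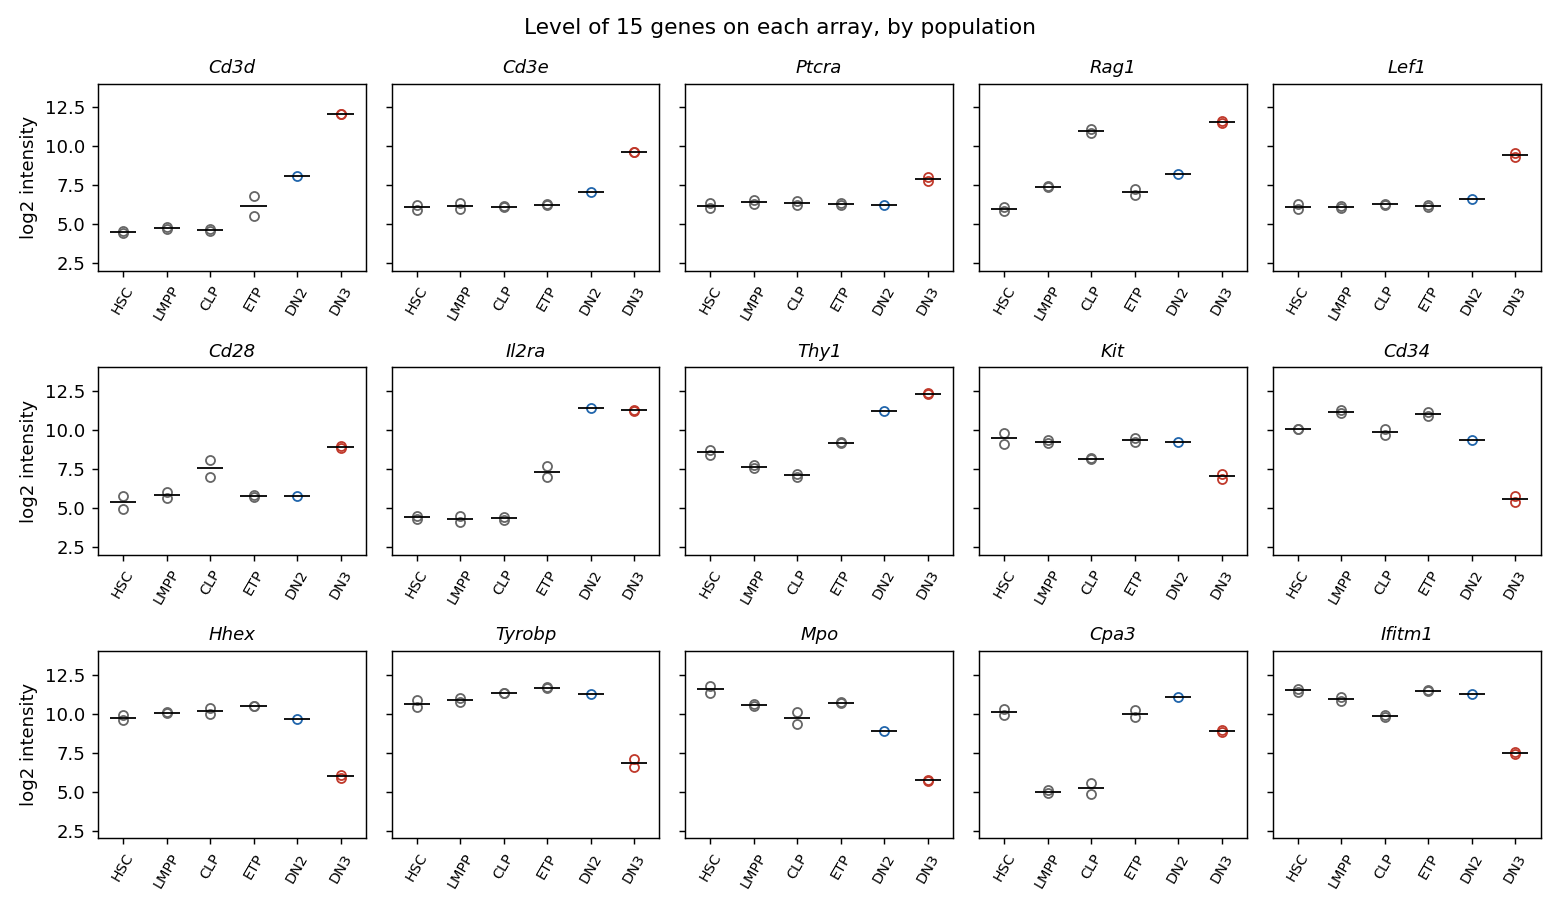
Log2 intensity (vertical axis) of 15 genes on each of the 11 arrays, by population from HSC to DN3, with 1 circle per array and a bar at the mean. Cd3d, Cd3e, Ptcra, Rag1 and Lef1 are highest on the 2 DN3 arrays, whereas Tyrobp, Hhex and Cd34 are high from HSC to DN2 and low in DN3.

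The RAG recombinase genes rose with the CD3 chains. Rag1, the catalytic subunit, was 6.85 and 7.25 in ETP, 8.21 in DN2 and 11.45 and 11.63 in DN3, a rise of 3.33 ± 0.20 log2 (SE, adjusted p = 1.22e-05). The CLP mean was 10.98, so among the populations Rag1 was high at that marrow stage, low in ETP and high again in DN3. Rag2, its partner, was 7.86 in DN2 and 9.09 and 9.08 in DN3, 2.33-fold higher (adjusted p = 0.007), but not without DN3 replicate 1 (0.0523) or 2 (0.0517). Only these 2 of 18 measured genes of recombination and end joining rose and 0 fell, with a median of 0.12 log2; without either DN3 array 1 rose, and without either LMPP array 3 did. Dntt, the terminal transferase that adds nucleotides at the joins, was already 11.49 in DN2 and 12.06 and 12.16 in DN3 (adjusted p = 0.203). Lig4, the ligase of end joining, was 9.10 in DN2 and 9.89 and 9.93 in DN3 and narrowly missed the threshold (adjusted p = 0.0587).

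The promoter windows of 4 genes that rose and 2 that fell are shown. The genes of each set share a direction because they were grouped by it, and they differed over the other populations. Hhex was 9.59 to 10.36 in marrow and Olfm5 5.64 to 6.27, while the CLP mean was 10.98 for Rag1 and 4.62 for Cd3d. Each window runs from 250 bases before to 50 bases after the start in RefSeq (GRCm38.p6) and is written 5′ to 3′ on the gene's strand. Capitals mark the E-box forms CAGCTG and CAGGTG, bound by E proteins, and the ETS-type core AGGAAG, on either strand (CACCTG and CTTCCT are the reverse complements of CAGGTG and AGGAAG).
Cd3d, chr9:44981536-44981835, plus strand: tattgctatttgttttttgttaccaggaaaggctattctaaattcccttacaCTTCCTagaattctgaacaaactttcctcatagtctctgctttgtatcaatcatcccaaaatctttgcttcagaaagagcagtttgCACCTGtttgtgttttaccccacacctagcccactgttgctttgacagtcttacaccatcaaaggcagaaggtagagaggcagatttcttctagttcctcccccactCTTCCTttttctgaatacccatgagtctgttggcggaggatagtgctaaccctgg
Cd3e, chr9:45009562-45009861, minus strand: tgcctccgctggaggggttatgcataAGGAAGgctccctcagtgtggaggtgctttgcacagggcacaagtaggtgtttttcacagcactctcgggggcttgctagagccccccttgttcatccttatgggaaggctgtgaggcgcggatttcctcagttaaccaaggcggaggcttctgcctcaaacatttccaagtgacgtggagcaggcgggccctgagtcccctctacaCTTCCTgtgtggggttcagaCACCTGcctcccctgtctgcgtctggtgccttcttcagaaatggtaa
Ptcra, chr17:46763663-46763962, minus strand: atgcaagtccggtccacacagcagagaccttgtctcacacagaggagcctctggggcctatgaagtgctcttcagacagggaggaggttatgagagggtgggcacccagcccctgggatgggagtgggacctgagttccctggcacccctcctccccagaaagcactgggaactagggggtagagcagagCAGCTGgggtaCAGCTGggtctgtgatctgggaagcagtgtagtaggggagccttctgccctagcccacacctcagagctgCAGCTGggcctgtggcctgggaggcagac
Rag1, chr2:101649483-101649782, minus strand: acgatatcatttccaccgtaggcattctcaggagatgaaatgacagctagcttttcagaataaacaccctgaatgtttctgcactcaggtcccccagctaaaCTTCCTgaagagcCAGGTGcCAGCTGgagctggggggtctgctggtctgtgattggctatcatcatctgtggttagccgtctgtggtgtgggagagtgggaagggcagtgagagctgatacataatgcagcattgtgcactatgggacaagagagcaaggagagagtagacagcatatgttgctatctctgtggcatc
Hhex, chr19:37434591-37434890, plus strand: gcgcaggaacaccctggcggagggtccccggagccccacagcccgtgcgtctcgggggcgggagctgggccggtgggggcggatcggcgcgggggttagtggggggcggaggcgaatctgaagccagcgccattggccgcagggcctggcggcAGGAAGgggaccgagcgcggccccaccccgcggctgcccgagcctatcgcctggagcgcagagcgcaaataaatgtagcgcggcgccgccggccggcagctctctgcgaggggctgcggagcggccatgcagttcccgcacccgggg
Olfm5, chr7:104164767-104165066, minus strand: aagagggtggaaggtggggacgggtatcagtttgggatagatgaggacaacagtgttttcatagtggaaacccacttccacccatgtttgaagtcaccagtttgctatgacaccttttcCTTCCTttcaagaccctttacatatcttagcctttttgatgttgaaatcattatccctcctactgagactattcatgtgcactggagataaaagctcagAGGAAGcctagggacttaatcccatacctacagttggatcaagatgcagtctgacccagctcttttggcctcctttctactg
Ptcra held 3 copies of CAGCTG, Rag1 1 of each form, and Cd3d and Cd3e 1 CAGGTG and 2 AGGAAG each. Hhex held 1 AGGAAG, Olfm5 2, and neither held an E-box of these forms. Among all windows matched by symbol, CAGGTG was found in 34.0% of 103 genes that rose, 16.5% of 170 that fell and 22.2% of 15614 tested genes. AGGAAG was found in 42.7%, 56.5% and 36.9%. CAGCTG shares were 21.4%, 20.0% and 18.4%. At least 1 of the 2 E-box forms was found in 42.7%, 31.8% and 35.7%. Most genes that rose therefore held neither form, unlike the 4 shown. Each match is a match of letters and not a measured binding site, and no test was run.

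A few transcription factors of the T lineage rose. Of 27 measured, 4 rose and 0 fell, with a median of 0.18 log2. Lef1, the partner of TCF1 in the TCF/LEF family, was 6.59 in DN2 and 9.31 and 9.57 in DN3, 7.2-fold higher (adjusted p = 1.35e-05), with ETP at 6.25 and 6.11. The ETS family members Ets1 (7.73 in DN2, 9.29 and 9.37 in DN3) and Ets2 (5.64, 7.64 and 7.56) rose 3.04-fold and 3.89-fold (adjusted p = 0.00128 and 0.000264). Ikzf3, which encodes Aiolos, rose 2.64-fold (5.02 to 6.71 and 6.13, adjusted p = 0.00715; 0.0817 with thymic arrays only). Gata3, required for T lineage entry, was 7.82 in DN2 and 7.85 and 8.19 in DN3 (adjusted p = 1). Bcl11b, the factor whose onset marks commitment, was 6.97 in DN2 and 7.26 and 7.11 in DN3 (adjusted p = 1), with ETP at 6.16 and 6.13. Neither difference passed the test. The E protein gene Tcf12 was 9.21 in DN2 and 10.04 and 10.15 in DN3 (adjusted p = 0.0581). In a list of 10 E protein and Id genes and related factors, 1 rose and 1, Lyl1, fell. Lyl1 itself is neither an E protein nor an Id inhibitor. Id3, an inhibitor of E proteins, rose 1.78-fold (5.90 to 6.73 and 6.74, adjusted p = 0.0157), but not without DN3 replicate 1 (0.0926) or 2 (0.107).

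Of 30 measured Notch receptors, targets and modifiers, 3 rose and 0 fell, with a median of 0.01 log2. The genes that rose were Ptcra, Uaca (7.05 to 8.81 and 9.03, 3.66-fold, adjusted p = 0.0021) and Notch3 (6.16 to 6.89 and 7.13, 1.81-fold, adjusted p = 0.0324). Notch3, a receptor of the pathway, did not pass without DN3 replicate 1 (0.0677) or 2 (0.238), nor without either LMPP array or either ETP array (lowest 0.0549). The receptor Notch1 was 7.88 in DN2 and 8.19 and 8.46 in DN3 (adjusted p = 0.755). The direct target Hes1 was 8.24, 8.44 and 8.36 (adjusted p = 1), both stages far above the marrow range of 5.72 to 6.72. Dtx1, another target, was 6.90 in DN2 and 7.48 and 7.11 in DN3 (adjusted p = 0.64).

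Genes of T cell signalling and of the T cell surface changed as well. Of 32 measured kinases and adaptors of receptor signalling, 6 rose (18.8%) and 1 fell, with a median of 0.15 log2; 3 rose without DN3 replicate 1, 2 without replicate 2 and 10 with array weights. The gene that fell, Ubash3b (2.08-fold, adjusted p = 0.0305), which encodes a phosphatase that limits signalling, did not pass without DN3 replicate 1 (0.0723) or 2 (0.216). Sh2d1a, the adaptor SAP of the SLAM family receptors, was 6.35 in DN2 and 10.33 and 10.28 in DN3, 15.5-fold higher (3.96 ± 0.28 log2, adjusted p = 3.76e-05). Themis, an adaptor of thymocyte selection, was 4.93 and 5.28 in ETP, 8.21 in DN2 and 10.12 and 10.08 in DN3, 3.70-fold higher than DN2 (adjusted p = 0.00167). Among the thymic arrays it was lowest in ETP, between in DN2 and highest in DN3. Cblb, a ubiquitin ligase that limits signalling, rose 2.80-fold (adjusted p = 0.0175; 0.0785 and 0.122 without DN3 replicate 1 and 2). Lat and Zap70, an adaptor and a kinase below the receptor, rose 1.67-fold and 1.74-fold with adjusted p = 0.0444 and 0.0485, and each did not pass without 8 of the 10 arrays (highest 0.213 and 0.308).

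Of 28 measured T cell surface receptors, 6 rose and 4 fell, with a median of 0.09 log2; without DN3 replicate 1 the counts were 3 and 3, without replicate 2 they were 4 and 3, and with thymic arrays only 4 and 1. Cd44 is among the 4 that fell, but it is a marker of the usual sort and a check of the labels rather than a result. It is counted again among the chemokine receptor and adhesion genes below. The costimulatory receptor Cd28 was 5.78 in DN2 and 8.99 and 8.84 in DN3, 8.78-fold higher (adjusted p = 0.00215). Ctla4, the inhibitory receptor for the same ligands, was 5.24 in DN2 and 8.13 and 8.28 in DN3, 7.80-fold higher (adjusted p = 3.39e-05). Both were at or near their ETP values in DN2 (5.72 and 5.79 for Cd28, 5.01 and 5.18 for Ctla4). Thy1, the pan-T surface protein, rose 2.14-fold from an already high 11.23 to 12.34 and 12.31 (adjusted p = 0.006). Cd160 fell 2.87-fold (7.28 to 5.62 and 5.90, adjusted p = 0.00322; 0.0514 with thymic arrays only), and Cd53, a tetraspanin of leukocytes, 2.16-fold (11.03 to 9.76 and 10.09, adjusted p = 0.00607; 0.0566 with thymic arrays only). Ccr9, the receptor for the thymic chemokine CCL25, was 4.87 in DN2, the lowest of the 11 arrays, and 7.40 and 7.84 in DN3, with ETP at 6.33 and 6.97. Its 6.71-fold rise (adjusted p = 0.000232) therefore follows a lower value in DN2 than in ETP. Of 26 chemokine receptor and adhesion genes, Ccr9 rose, and Cd44 and Itga4, an integrin chain (11.24 to 10.33 and 10.48, 1.79-fold, adjusted p = 0.0091), fell; Itga4 did not pass without DN3 replicate 1 (0.08). Of 22 genes of later thymocytes and mature T cells, 3 rose, Themis, Arpp21 (2.07-fold, adjusted p = 0.00529; 0.0522 without DN3 replicate 2) and Cd8b1, the CD8 beta chain (5.38 to 6.50 and 6.26, adjusted p = 0.0163; 0.126 without DN3 replicate 1).

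Other genes among the 12 highest differences were low through ETP and DN2. Dgkeos, an antisense transcript of the diacylglycerol kinase gene Dgke, rose 12.7-fold (6.46 to 10.06 and 10.18, adjusted p = 5.99e-06). Spats2 rose 9.16-fold (4.61 to 7.74 and 7.86, adjusted p = 9.25e-06), and Camk4, a calcium-dependent kinase, 8.72-fold (4.64 to 7.42 and 8.11, adjusted p = 3.66e-05). Pld4, a member of the phospholipase D family, rose 6.42-fold (adjusted p = 0.00127). Airn, the noncoding RNA antisense to the imprinted gene Igf2r, rose 6.01-fold (6.02 to 8.43 and 8.79, adjusted p = 0.000178), while Igf2r itself was 5.98 in DN2 and 6.54 and 6.56 in DN3 (adjusted p = 0.409).

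Several transcription factors of blood progenitors fell. Of 29 measured, 7 fell (24.1%) and 0 rose, with a median of -0.27 log2 and 21 of 29 lower in DN3. The count was 5 without DN3 replicate 1, 4 without replicate 2 and 4 with arrays centred on their medians. Hhex, a homeobox factor of early progenitors, was 10.47 and 10.51 in ETP, 9.65 in DN2 and 6.06 and 5.90 in DN3, 12.7-fold lower (-3.67 ± 0.19 log2, adjusted p = 6.04e-06). Nfe2, a bZIP factor of the megakaryocyte and erythroid lineages, fell 5.04-fold (9.36 to 6.75 and 7.30, adjusted p = 0.000556). Mef2c, a factor of lymphoid and myeloid progenitors, was lower in DN2 than in ETP already: it was 9.11 and 9.37 in ETP, 7.49 in DN2 and 5.90 and 5.63 in DN3, 3.31-fold below DN2 (adjusted p = 0.000414). Lyl1, a bHLH factor, fell 2.05-fold (8.19 to 7.27 and 7.05, adjusted p = 0.00846; 0.0808 without DN3 replicate 2). Bcl11a fell 2.67-fold (8.46 to 7.12 and 6.97, adjusted p = 0.0242), but did not pass without DN3 replicate 1 (0.0948) or 2 (0.159). Spi1, which encodes PU.1 of the myeloid programme, was 6.69 in DN2 and 5.83 on both DN3 arrays, with ETP at 7.40 and 7.80, and was not called (adjusted p = 0.142).

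Some surface proteins of progenitors fell too. Of 28 measured cytokine and growth factor receptors, 5 fell and 0 rose, with a median of 0.00 log2, and 3 fell without either DN3 array. The list also holds Cd34 and Cd93, which are not cytokine or growth factor receptors, and both are among the 5 that fell. Kit is among the 5 as well, but it is a marker of the usual sort and a check of the labels rather than a result. Cd34, the sialomucin of stem cells and progenitors, was 9.32 in DN2 and 5.39 and 5.78 in DN3, 13.3-fold lower (adjusted p = 9.51e-06). Cd93 fell 2.48-fold (adjusted p = 0.00549; 0.0527 without DN3 replicate 2), and Il18rap, a chain of the interleukin 18 receptor, 2.37-fold (adjusted p = 0.0112; 0.0864 without DN3 replicate 1). Il7r, the receptor for interleukin 7, was 9.77 in DN2 and 9.68 and 9.81 in DN3 and was not called (adjusted p = 1).

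**Figure D3:**
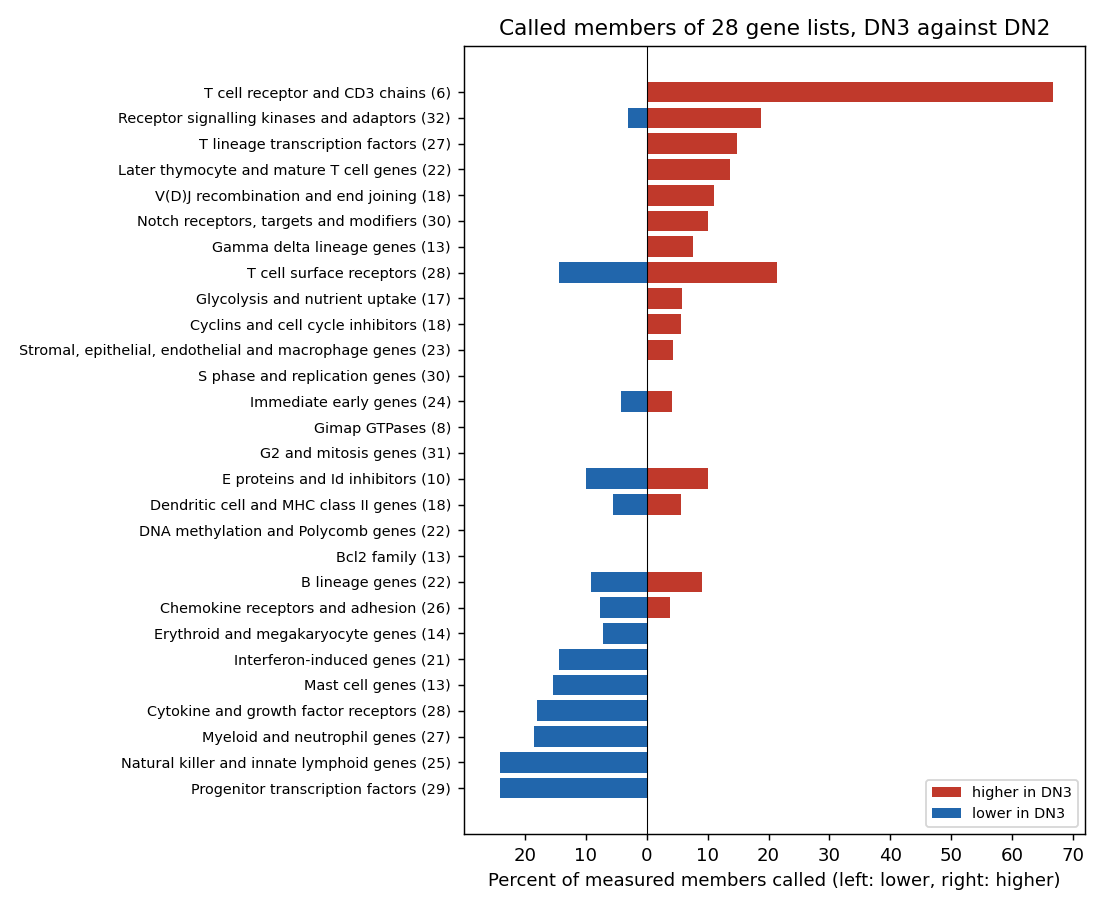
Percent of the measured members of each of 28 gene lists that were called higher in DN3 (red, to the right) or lower (blue, to the left), with the number measured in brackets. T cell receptor and CD3 chains have the longest red bar (66.7%), against 0.702% of all genes. Progenitor transcription factors (24.1%) and natural killer genes (24.0%) have the longest blue bars, against 1.09% of all genes. Some genes are on more than 1 list, among them Tyrobp and Fcer1g on the myeloid and natural killer lists.

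Markers of the other cell types such a sort could hold were examined beside these falls. Of 27 measured myeloid genes, 5 fell and 0 rose, with a median of -0.18 log2 and 21 of 27 lower; their mean level was 7.20 and 7.34 in ETP, 6.46 in DN2 and 5.83 and 5.86 in DN3. Tyrobp, the adaptor DAP12 of myeloid and natural killer receptors, was 11.24 in DN2 and 6.56 and 7.08 in DN3, 21.5-fold lower (adjusted p = 6.04e-06), the largest called difference of any named gene. Its marrow range was 10.44 to 11.34, so the fall followed a level shared by all earlier populations. Mpo, the myeloperoxidase of neutrophil granules, fell 8.92-fold (8.89 to 5.78 and 5.68, adjusted p = 0.000178), and Fcer1g, an Fc receptor chain, 4.99-fold (8.02 to 5.69 and 5.70, adjusted p = 3.2e-05). The granule protease gene Ctsg fell 3.53-fold (adjusted p = 0.00606; 0.0534 without DN3 replicate 1). The myeloid markers Elane, S100a8 and Csf1r were at 5.04, 6.33 and 5.55 in DN2 and were not called (adjusted p = 1 each). Without DN3 replicate 1 the list count was 3, without replicate 2 it was 4. The part of myeloid cells in the falls above was not tested.

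Of 25 measured natural killer and innate lymphoid genes, 6 fell and 0 rose, with a median of -0.16 log2. Tyrobp and Fcer1g, named above, are on both this list and the myeloid list, so their falls are counted in each. The mean level of the list was 6.31 and 6.45 in ETP, 6.20 in DN2 and 5.54 and 5.51 in DN3. Cd244a, the receptor 2B4, fell 11.6-fold (9.07 to 5.56 and 5.49, adjusted p = 9.51e-06), and Fasl, the death ligand, 5.50-fold (6.69 to 4.30 and 4.17, adjusted p = 5.31e-05). The defining natural killer receptors Ncr1 (4.14 in DN2) and Klrb1c (3.43) lay within or below their marrow range in DN2. Nkg7, a granule protein gene and another marker of these cells, was 10.24 in DN2, above its marrow range of 8.20 to 10.02, and 8.97 and 8.83 in DN3, 2.53-fold lower (adjusted p = 0.0095; 0.0814 without DN3 replicate 2). Gzma, a granzyme, went the other way, from 9.53 to 11.16 and 11.21 (3.14-fold), and did not pass (adjusted p = 0.0636; 0.00751 without either ETP array, which lay at 6.52 and 7.66). Without either ETP array 7 genes of the list fell and 1 rose. The part of natural killer or innate lymphoid cells in the results was not tested.

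Of 13 mast cell genes, 2 fell and 0 rose, with a median of 0.04 log2. Mcpt8, a mast cell and basophil protease, fell 3.43-fold (6.72 to 4.94 and 4.95, adjusted p = 0.0483) and did not pass when any HSC, LMPP, ETP or DN3 array was left out (0.217 at most). Cpa3, the mast cell carboxypeptidase, was 11.06 in DN2, the highest of the 11 arrays, with 9.76 and 10.22 in ETP and 8.83 and 8.95 in DN3, 4.49-fold lower (adjusted p = 0.00267). The mast cell receptor gene Ms4a2 was 4.19 in DN2 and 3.99 and 4.03 in DN3 (adjusted p = 1).

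Of 22 measured B lineage genes, 2 rose and 2 fell, with a median of -0.05 log2. The kinase gene Btk fell 7.38-fold (8.52 to 5.74 and 5.54, adjusted p = 1.22e-05) and Cd72 6.40-fold (8.33 to 5.59 and 5.71, adjusted p = 0.000187). Bst1, an ectoenzyme, rose 4.63-fold (7.13 to 9.16 and 9.52, adjusted p = 0.00124). Rhoh, a GTPase of blood cells, rose 1.57-fold (adjusted p = 0.0354) and did not pass without 8 of the 10 arrays (0.198 at most). The defining factors Ebf1 (4.40 in DN2, 4.45 and 4.21 in DN3) and Pax5 (5.96, 6.00 and 5.78) were low at both stages. Among 18 dendritic and MHC class II genes, Ccr9 rose and H2-Ob fell 2.53-fold (adjusted p = 0.00167); among 14 erythroid and megakaryocyte genes only Car2 was called, 3.78-fold lower (adjusted p = 0.000264). In a list of 23 stromal, epithelial, endothelial and macrophage genes, Epcam rose 3.61-fold (5.36 to 7.20 and 7.23, adjusted p = 2.63e-05) and no other member was called; the epithelial factor Foxn1 was 5.81 in DN2 and 6.05 and 5.95 in DN3 (adjusted p = 1).

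The background for lists with 0 or 1 calls is that of all genes, of which 1.80% were called. Of 19938 genes, 1629 (8.17%) had an unadjusted p under 0.05 and 9986 (50.1%) were lower in DN3. Counts of 0 or 1 in lists of this size lie near that background and are no result about the lists. Among the lists of the paragraph above, the called share was 18.2% for B lineage, 11.1% for dendritic, 7.14% for erythroid and 4.35% for stromal genes. Of 30 S phase genes 0 were called, with a median of -0.10 log2, 21 lower and 2 at an unadjusted p under 0.05. Of 31 G2 and mitosis genes 0 were called, with a median of -0.06 log2, 25 lower and 1 at an unadjusted p under 0.05. Their largest differences were in Cdc6, the replication licensing factor (8.89 to 8.45 and 8.27, adjusted p = 0.399), and Ttk, a spindle checkpoint kinase (8.97 to 8.40 and 8.59, adjusted p = 0.276). Of 13 Bcl2 family genes 0 were called (1 at an unadjusted p under 0.05), and Bcl2 itself was 8.84 in DN2 and 9.31 and 9.18 in DN3 (adjusted p = 0.845). Of 22 DNA methylation and Polycomb genes 0 were called (3 unadjusted), and of 8 Gimap genes 0 (1 unadjusted); Gimap7 (8.15 to 7.41 and 7.18, adjusted p = 0.0663) passed without either ETP array (0.0339). Myc was 10.31 in DN2 and 10.85 and 10.77 in DN3 (adjusted p = 0.355). Among 18 cyclins and cell cycle inhibitors only the antiproliferative gene Btg2 rose, 2.47-fold (adjusted p = 0.00955; 0.0577 and 0.0773 without DN3 replicate 1 and 2). Of 17 glycolysis and nutrient uptake genes only Pfkp, a phosphofructokinase, rose, 2.03-fold (adjusted p = 0.0124; 0.0723 and 0.0937 without DN3 replicate 1 and 2).

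Among 21 measured interferon-induced genes, 3 fell and 0 rose, with a median of -0.19 log2, and all 3 were members of the Ifitm family of membrane proteins that restrict viral entry. Ifitm1 was 11.26 in DN2 and 7.44 and 7.54 in DN3, 13.7-fold lower (-3.77 ± 0.16 log2, adjusted p = 3.65e-06), with ETP at 11.44 and 11.50. Ifitm3 fell 3.81-fold (11.45 to 9.61 and 9.44, adjusted p = 7.72e-05). Ifitm2 fell 1.95-fold (adjusted p = 0.0367) and did not pass without 8 of the 10 arrays (highest 0.259). Samhd1, a nucleotide hydrolase that restricts retroviruses and is not on this list, fell 12.7-fold (8.22 to 4.53 and 4.58, adjusted p = 9.66e-06). Gbp4, an interferon-inducible GTPase gene also outside the list, went the other way and was 2.76-fold higher in DN3. That rise did not pass without DN3 replicate 1 or 2, as given under the other observations. Further genes among the 12 lowest differences were Cd63, a tetraspanin (12.8-fold, adjusted p = 0.000129), Clec4e, a C-type lectin (10.9-fold, 0.00123), Cst7, a cysteine protease inhibitor (10.1-fold, 2.44e-05), Rgs18, a regulator of G protein signalling (9.99-fold, 6.04e-06), and Bex6 (9.23-fold, 6.04e-06).

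Some called genes lay next to each other. In the RefSeq order of the tested genes, 21 runs of neighbours called in the same direction held 49 of the 357 called genes with a place. The number of such runs in a random order of the 19919 genes with a place was not tallied, so the count is a description. Some runs hold genes of 1 family, such as Ifitm, and cross-hybridisation of their probes was not tested. On chromosome 9 Cd3d, Cd3e, Mpzl2 and Mpzl3 rose; Mpzl2, an adhesion protein, went from 5.87 to 8.12 and 8.45 (5.35-fold, adjusted p = 0.000149), and Mpzl3 rose 1.97-fold (adjusted p = 0.0436; 0.257 at most without 1 array, lost in 6 of 10). Cd28 and Ctla4 on chromosome 1, Rag1 and Rag2 on chromosome 2, and Dgke, Dgkeos and Gm525 on chromosome 11 were other runs of genes that rose. Adgrg1, Adgrg3 and Drc7 on chromosome 8 fell together, Adgrg3 by 8.19-fold (adjusted p = 5.63e-05) and Drc7 by 7.56-fold (adjusted p = 1.63e-05). Of these, Dgke (2.20-fold, adjusted p = 0.00924) did not pass without DN3 replicate 2 (0.0808), and Adgrg1 (3.33-fold, adjusted p = 0.0157) without DN3 replicate 1 (0.0974) or 2 (0.0833).

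The run with most genes that fell lay on chromosome 7, in an olfactory receptor cluster: Ubqlnl, Olfm5, Olfr648 and Olfr649. These genes and Olfr644 were named after their values were seen, except Olfm5. Olfr649 was 8.94 and 8.12 in ETP, 8.49 in DN2 and 4.49 and 4.64 in DN3, within its marrow range of 4.34 to 5.0; the fall was 15.2-fold (adjusted p = 5.63e-05). Olfr648 was 7.71 and 7.44 in ETP, 7.56 in DN2 and 3.96 and 4.23 in DN3, 11.1-fold lower (adjusted p = 2.44e-05). Olfm5, an olfactomedin, was 8.80 and 8.68 in ETP, 9.51 in DN2 and 5.95 and 6.11 in DN3, 11.2-fold lower (adjusted p = 1.07e-05). All 3 were thus high only in ETP and DN2 of the 6 populations. Ubqlnl fell 3.84-fold (6.85 to 4.92 and 4.89, adjusted p = 0.00456; 0.076 with thymic arrays only) and Olfr644 3.30-fold (6.76 to 5.04 and 5.05, adjusted p = 0.00493), whereas Trim6 nearby was 6.39 in DN2 and 5.86 and 5.99 in DN3 (adjusted p = 0.41). Olfactory receptors have close paralogs, and cross-hybridisation of their probes was not tested.

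**Figure D4:**
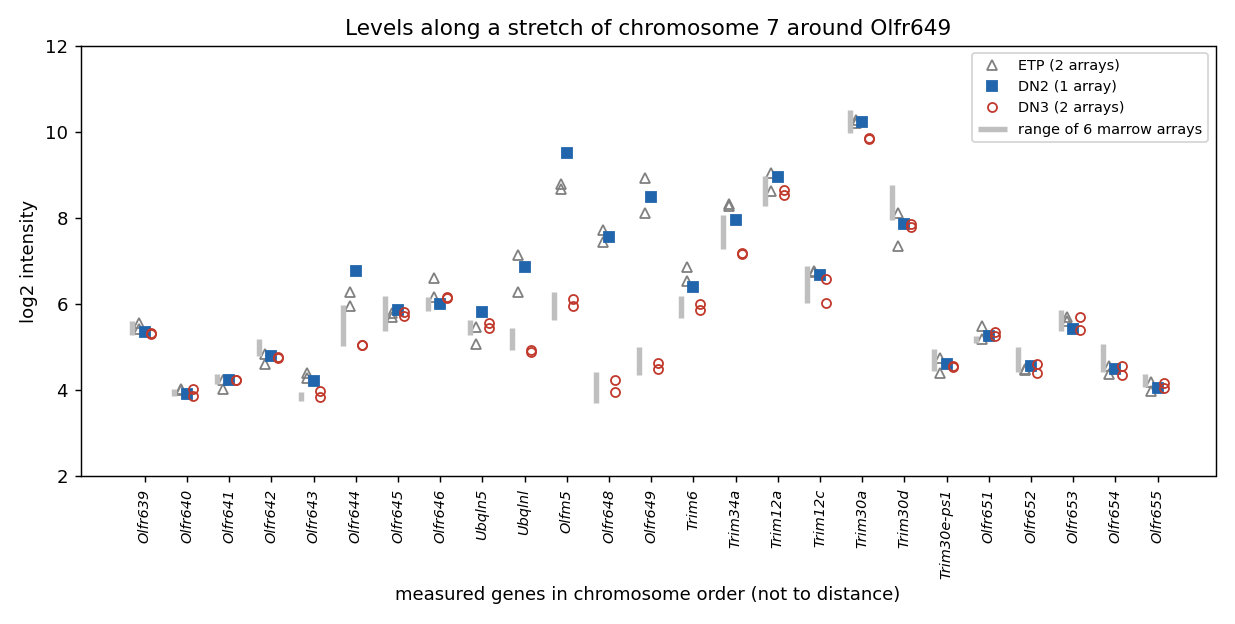
Log2 intensity (vertical axis) of measured genes in chromosome order, not to distance (horizontal axis), along a stretch of chromosome 7: triangles are the 2 ETP arrays, squares the DN2 array, circles the 2 DN3 arrays and grey bars the range of the 6 marrow arrays. At Olfm5, Olfr648 and Olfr649 the ETP and DN2 arrays stand above both the DN3 arrays and the marrow range.

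For most genes that changed, the ETP mean was at the DN2 value or beyond it, away from DN3. Of the 140 that rose, it was at or below DN2 in 93. Of the 218 that fell, it was at or above DN2 in 144. The rest include genes with ETP just on the DN3 side of DN2, such as Ptcra (ETP mean 6.3, DN2 6.22, DN3 mean 7.88). The share over all genes was not tallied. The DN2 value enters both the call and its comparison with ETP, so these counts are a description. The DN2 array was the lowest of 11 for 13 genes that rose (9.29%) and the highest for 40 that fell (18.3%), against 7.53% and 5.80% of all genes; the DN2 value enters both the call and this place, so the shares are a description. Of 300 microRNA genes and 10 antigen receptor segment genes measured, limma called 0 and 0, with 10 and 2 at an unadjusted p under 0.05 (8.17% of all genes).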

How the data were processed

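Total RNA was extracted with Trizol, labelled with biotin and hybridised to Affymetrix arrays, per the labels' protocols. The authors deposited log2 intensities computed with RMA, per the submitters' processing notes, which name no version, and no source used here gives the chip definition or build. Array medians ran from 6.01 to 6.12. Of 35556 probe sets, 21789 had 1 gene symbol in the platform annotation given, 1621 several and 12146 none. Probe sets with several or none were left out of the main test, and 999 genes with more than 1 probe set kept the one with the highest mean, which left 19938 genes. Tcf7, Lck and other genes lacking their own probe set were not analysed here.

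The contrast DN3 minus DN2 was taken from limma 3.58.1 (R 4.3.3), with 6 group means over 11 arrays and 5 residual degrees of freedom, two-sided, adjusted by Benjamini-Hochberg over all genes. The lone DN2 array was taken to vary as the other populations do. In simulated data the fit called 66 of 100 planted changes of 1 log2 and 95 of 100 of 2 log2. It also called 6 unchanged genes. The simulated DN2 array was given the same spread as the other populations, so that assumption was not tested. Named genes were the 12 highest and 12 lowest called differences, up to 4 called genes (else the gene with the largest difference) in each of 28 gene lists and a panel of 30 genes, 28 of them measured; some further list members and neighbours (among them Mpzl2, Mpzl3, Gm525, Igf2r, Olfr648, Cd53, Lat, Zap70, Lig4, Tcf12 and Gzma) were added after their values were seen. The members and lists were chosen with earlier results of these data known. The alternatives were 2 filters on dim genes, quantile normalization once more, centring on medians, the mean of probe sets, all probe sets, array weights, a robust prior with an intensity trend, a block for replicate number, thymic arrays only, DN2 and DN3 arrays only, stricter thresholds and leaving out each of 10 arrays. Gene order and promoter windows came from RefSeq (GRCm38.p6); Python 3.11.15, pandas 2.3.3 and matplotlib 3.10.9 were used for tables and figures.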

Additional observations from a re-analysis of the deposited data

How the results depend on the processing

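The count of called genes kept within 1.5 times of 358 under 2 filters on dim genes, quantile normalization once more, centring on medians, the mean of probe sets, array weights, a robust prior with an intensity trend, thymic arrays only and the 2-fold threshold. It fell to 196 (78 higher, 118 lower) with all probe sets, and to 191 (73 higher, 118 lower) at an adjusted p under 0.01. In a fit of the DN2 and DN3 arrays alone, with 1 residual degree of freedom, limma called 0 (0 higher, 0 lower), with 2323 genes at an unadjusted p under 0.05. Leaving out 1 array at a time gave 181 to 385 calls, 65 to 150 higher and 111 to 235 lower; the low ends came from the DN3 arrays, whose removal leaves 1 array on each side. With the replicate number as a block 301 genes were called (111 higher, 190 lower). DN2 and DN3 share only number 1, and deviations of same-numbered arrays correlated between -0.258 and 0.283 over pairs of populations, so the numbers do not show a pairing. Of 3180 pairs of a named gene and an alternative, 2868 kept direction and side of the threshold, 260 no longer passed, 42 newly passed and 10 turned direction, all 10 in genes that were not called, with differences near 0. Leaving out 1 array at a time gave log2 differences of -0.09 to 0.04 for Il7r, -0.05 to 0.13 for Cd27, -0.17 to 0.05 for Pax5, -0.19 to 0.05 for Ebf1, -0.21 to 0.36 for Elane, -0.23 to 0.08 for Ncr1 and -0.11 to 0.18 for C1qa, all turned by a DN3 array. Cd27 was -0.01 with the replicate block, and Col1a1 0.00 with quantile normalization once more and 0.01 with centring. Thymic arrays only ended the calls of 21 named genes, among them Lyl1, Il18rap, Cd8b1 and Pfkp; centring on medians ended 10, among them Bcl11a and Ubash3b. With 1 DN2 array, precision is limited most on that side.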

Other observations

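The genes in these paragraphs were chosen after their values were seen. A few guanylate-binding protein genes were higher in DN3; the other members of the family were not tallied, and Gbp11 is annotated as a transcribed pseudogene. Gbp4, an interferon-inducible GTPase gene, was 5.77 and 6.17 in ETP, 8.82 in DN2 and 10.26 and 10.31 in DN3 (2.76-fold, adjusted p = 0.0157), Gbp8 9.37 in DN2 and 10.69 and 10.75 in DN3 (2.55-fold, 0.0171), and Gbp11 4.94 in DN2 and 6.73 and 6.67 in DN3 (3.38-fold, 0.00814). None of the 3 passed without DN3 replicate 1 (0.0809, 0.0861 and 0.06) or replicate 2 (0.105, 0.112 and 0.0531). Prkcb, a protein kinase C, rose 4.52-fold (7.30 to 9.46 and 9.49, adjusted p = 4.73e-05), and Skap1, an adaptor of integrin activation, 2.99-fold (7.32 to 8.95 and 8.84, adjusted p = 0.00101). Nrp1, the neuropilin receptor, rose 4.81-fold (5.59 to 7.69 and 8.02, adjusted p = 0.000229), and Nr3c1, the glucocorticoid receptor, 2.59-fold (8.01 to 9.41 and 9.37, adjusted p = 0.00192).

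Mlkl, the effector of necroptosis, was 8.73 in DN2 and 5.54 and 6.23 in DN3 (7.18-fold, adjusted p = 0.000909), and Casp1, the inflammasome caspase, 9.48 in DN2 and 7.93 and 7.78 in DN3 (3.08-fold, adjusted p = 0.00117). The cytokine Il15 fell 4.84-fold (6.19 to 3.76 and 4.06, adjusted p = 0.000838). Some genes stood highest of the 11 arrays in DN2: Scin, an actin-severing protein, was 8.33 and 8.94 in ETP, 9.96 in DN2 and 7.25 and 7.82 in DN3 (adjusted p = 0.00207), and Esm1 was 5.73 and 5.76 in ETP, 9.76 in DN2 and 8.29 and 8.22 in DN3 (adjusted p = 0.00242). Pgpep1l, lowest of the 11 in DN2, rose 5.78-fold (4.49 to 6.98 and 7.07, adjusted p = 2.44e-05).

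In the fit of all 35556 probe sets, of which 196 (0.551%) were called, 13767 carry no or several gene symbols; 20 of these rose and 21 fell.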
